A study of Cavia porcellus with 44 samples.

Results

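Chemokines, interleukins, the tumour necrosis factor (TNF) family and their receptors were read in the liver RNA of 44 guinea pigs. This set was proposed with earlier results of these data known, so no test was made over the set as a whole. Its genes were taken by name, as the symbols in the deposited table of variance-stabilized values that begin with CCL, CXCL, CX3C, CCR, CXCR, ACKR, IL, TNF or CSF and a family number, with 1 chemokine left out. This gave 82 symbols of the 7747 in that table. They held 75 distinct series of counts, since some symbols had identical counts in every animal, and the files do not say why. The 82 symbols were 28 chemokine ligands, 12 chemokine receptors, 5 interleukins, 17 interleukin receptors, 6 TNF family ligands, 8 TNF receptors, 4 TNFAIP genes and, of the colony stimulating factors, CSF2 and the receptor CSF3R. A further 34 symbols that fit the naming rule had too few counts to enter that table, 10 of them with no count at all, and none of the 34 had a total above 192 counts over the 44 animals. The interleukins IL2, IL12A, IL13, IL17A and IL27 and the factor CSF3 were among these.

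All animals were Hartley guinea pigs, a species that, like humans, must obtain vitamin C (vitC) from its feed, and all were sampled at week 32. LFH (n = 8) received low fat feed (3.8% fat) with high vitC (2000 mg/kg feed) throughout, and HFH (n = 8) received high fat feed (20% fat) with the same vitC. The other 4 groups shared 16 weeks of high fat feed with low vitC (50 mg/kg feed). They then spent 16 weeks on the same feed (HFL/HFL, n = 10), on high fat and high vitC (HFL/HFH, n = 6), on low fat and low vitC (HFL/LFL, n = 6) or on low fat and high vitC (HFL/LFH, n = 6). The high fat feed also contained added sucrose and cholesterol, so that fat, sugar and cholesterol cannot be told apart here, and each low fat group (LFH, HFL/LFH and HFL/LFL) was pair fed to the high fat group at the same vitC level (HFH, HFL/HFH and HFL/HFL). Libraries held 21133807 to 35427724 counts, with a median of 25652393. Levels are given as CPM (a gene's counts scaled to its library's total) after TMM scaling, and an animal's floor of 3 counts lay between 0.0626 and 0.170 CPM. CPM is not corrected for gene length, so levels were compared between animals and never between genes.

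Chemokines are small secreted proteins that direct the migration of leukocytes through receptors on those cells. The CCL ligands named here act mainly on monocytes, macrophages, dendritic cells and lymphocytes, and CXCL8 acts mainly on neutrophils. Interleukins and TNF signal through receptor chains on immune cells, hepatocytes and other liver cells, and several receptors in these families (IL1R2, IL13RA2 and osteoprotegerin, TNFRSF11B) are decoys that bind a ligand without passing on its usual signal. In fatty liver with inflammation, recruited monocytes and resident macrophages are known producers and targets of many of these proteins.

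The first question was what high fat feed did to these genes, and it could be asked in 3 pairs of groups with no animal in common. In HFH against LFH, 40 of the 82 symbols rose and 7 fell (edgeR quasi-likelihood test with adjusted p under 0.05). Among all 7750 genes tested, 27.7% rose and 21.7% fell. In HFL/HFH against HFL/LFH, 37 rose and 5 fell, where the background was 19.4% and 16.5%. In HFL/HFL against HFL/LFL, 27 rose and 8 fell, where the background was 19.7% and 18.1%. The share of members that rose was 48.8%, 45.1% and 32.9% in these comparisons, and the share that fell was 8.54%, 6.10% and 9.76%. Counting each distinct series of counts once gave 33 risen and 7 fallen, 30 and 5, and 20 and 8 of 75. The median log2 fold change of the 82 members was 0.67, 0.78 and 0.25, that of the 75 distinct series 0.56, 0.66 and 0.13, and that of all genes tested was 0.06, 0.01 and 0.03. Groups without any overlap between animals were found for 19 higher and 2 lower members in HFH against LFH, where 8.84% and 8.03% of all genes were so separated. The members so separated numbered 25 and 2 in HFL/HFH against HFL/LFH (background 9.88% and 6.28%) and 14 and 2 in HFL/HFL against HFL/LFL (background 6.0% and 3.9%).

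Across the 3 comparisons, 25 symbols rose every time and 5 fell every time, which was 18 and 5 of the 75 distinct series. The same was true of 13.4% and 10.5% of all genes. The 25 were 17 chemokine ligand symbols (CCL2.1 among them, with no count in HFL/LFH or HFL/LFL), the receptors CCR1, IL10RB, IL1RL2, IL2RG, TNFRSF1B and TNFRSF19, TNF and TNFAIP8L3. The 5 that fell were IL6R, IL13RA2, IL1R2, IL33 and TNFSF10. A total of 28 members passed the test in none of the 3 comparisons.

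**Figure D1:**
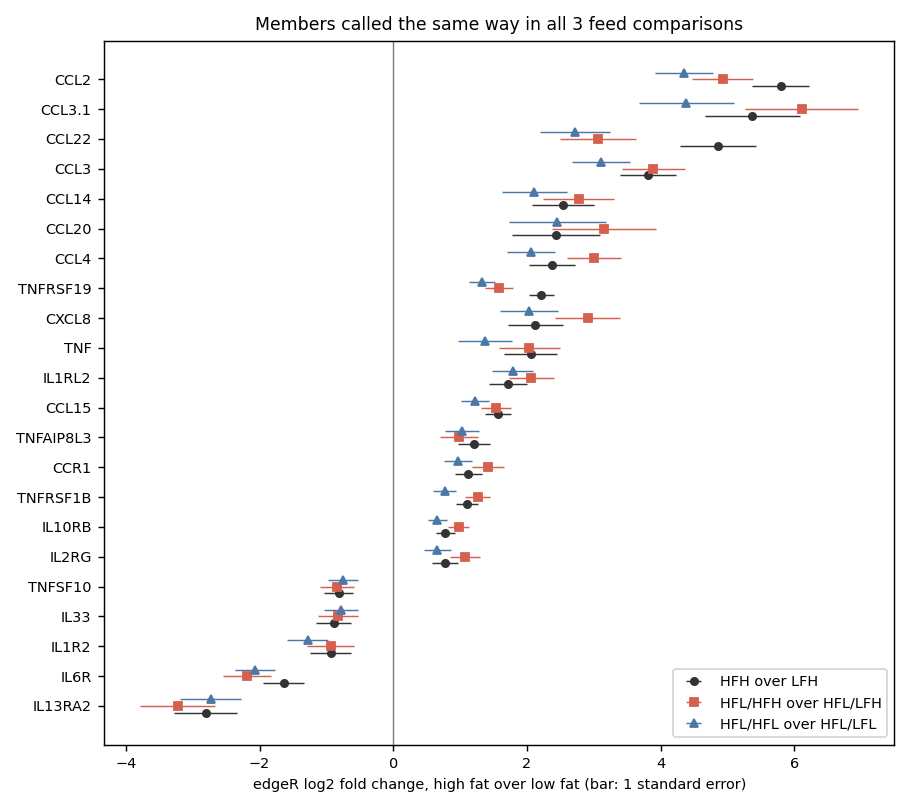
Log2 fold changes (x axis, high fat over low fat, with 1 standard error) of the members that passed the test in the same direction in all 3 feed comparisons, with genes that share counts drawn once and CCL2.1 left out because it had no counts in HFL/LFH and HFL/LFL. CCL2 lies between 4.35 and 5.80, and IL13RA2 and IL6R are the lowest, between -3.23 and -1.64.

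Of the ligands, CCL2 (monocyte chemoattractant protein, the ligand of CCR2) rose in each of the 3 feed comparisons. It lay between 0.209 and 1.63 CPM in LFH (median 0.58), between 0.638 and 3.8 in HFL/LFH (median 1.27) and between 0.65 and 3.45 in HFL/LFL (median 1.03). On high fat it lay between 14.6 and 67.3 CPM in HFH (median 31.9), between 17.4 and 76.8 in HFL/HFH (median 59.7) and between 19.4 and 42.5 in HFL/HFL (median 25.2). Every animal on high fat feed therefore lay above every animal on low fat feed. CCL2 was 55.7-fold higher in HFH than in LFH (log2 5.80, SE 0.43, adjusted p = 1.37e-14, edgeR), 30.5-fold higher in HFL/HFH than in HFL/LFH and 20.3-fold higher in HFL/HFL than in HFL/LFL. A second row named CCL2.1, whose relation to CCL2 the files do not state, had no count in any animal of HFL/LFH or HFL/LFL. Against the floor of 3 counts per library it was at least 5.96-fold higher in HFL/HFH and at least 9.99-fold higher in HFL/HFL.

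CCL3 (macrophage inflammatory protein 1-alpha, a ligand of CCR1) had the same counts as CCL18 and CCL3L1, so these names stand for 1 series of counts. Its levels lay between 0 and 1.33 CPM in LFH (median 0.565), between 0.177 and 2.06 in HFL/LFH (median 0.869) and between 0.636 and 1.85 in HFL/LFL (median 1.54). On high fat the range was 3.8 to 13.1 CPM in HFH (median 8.44), 5.25 to 21.9 in HFL/HFH (median 12.8) and 6.54 to 18.8 in HFL/HFL (median 12.1). The feeds did not overlap. The log2 fold changes were 3.81 (SE 0.42), 3.89 (SE 0.47) and 3.11 (SE 0.43) in the order given above. The companion row CCL3.1, equal to CCL18.1 and CCL3L1.1, rose by 5.38, 6.12 and 4.38 on the log2 scale. CCL4 (macrophage inflammatory protein 1-beta), which had the same counts as CCL4L2, lay between 0.315 and 3.05 CPM in LFH (median 1.17) and between 4.13 and 10.7 in HFH (median 7.17), and rose by 2.37, 3.0 and 2.06.

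CCL22 and CCL17, ligands of CCR4 made by macrophages and dendritic cells, were scarce on low fat feed. CCL22 lay between 0 and 0.219 CPM in LFH (median 0.104) and between 0.98 and 5.13 in HFH (median 3.12), with log2 fold changes of 4.86 (SE 0.57), 3.07 (SE 0.57) and 2.73 (SE 0.52). In HFL/HFL against HFL/LFL its animals overlapped. CCL17 stayed low in every group, with a highest value of 1.17 CPM, and rose in HFH (log2 2.84, SE 1.01, adjusted p = 0.0186, edgeR) and in HFL/HFH (log2 3.56, SE 1.12, adjusted p = 0.0108, edgeR). Without HFH animal 1 the adjusted p of CCL17 in HFH was 0.0662, and by limma voom it was 0.103. When an animal was left out, its log2 fold change ran from 2.25 to 5.42 in HFH and from 2.98 to 6.51 in HFL/HFH.

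CCL15, which shared its counts with CCL23 and a joint CCL15 and CCL14 entry and binds CCR1, was abundant on both feeds. It lay between 46.5 and 70.5 CPM in LFH (median 51.1) and between 99.1 and 211 in HFH (median 186), and its log2 fold changes were 1.57, 1.54 and 1.22. HFL/LFL reached 122 CPM and overlapped HFL/HFL, whose lowest animal had 112 CPM. CCL14, a separate row, rose by 2.54, 2.78 and 2.11, from a median of 0.913 CPM in LFH to 5.43 in HFH. CCL20, the ligand of CCR6, rose by 2.44, 3.15 and 2.46 with medians of 0.143 CPM in LFH and 1.22 in HFH. When an animal was left out, its value in HFH ran from 2.18 to 3.65. CXCL8 lay between 0 and 1.62 CPM in LFH (median 1.05), between 1.40 and 5.82 in HFH (median 4.70) and between 2.93 and 13.7 in HFL/HFL (median 5.15). Its log2 fold changes were 2.13, 2.91 and 2.03, and the animals overlapped in HFH against LFH.

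**Figure D2:**
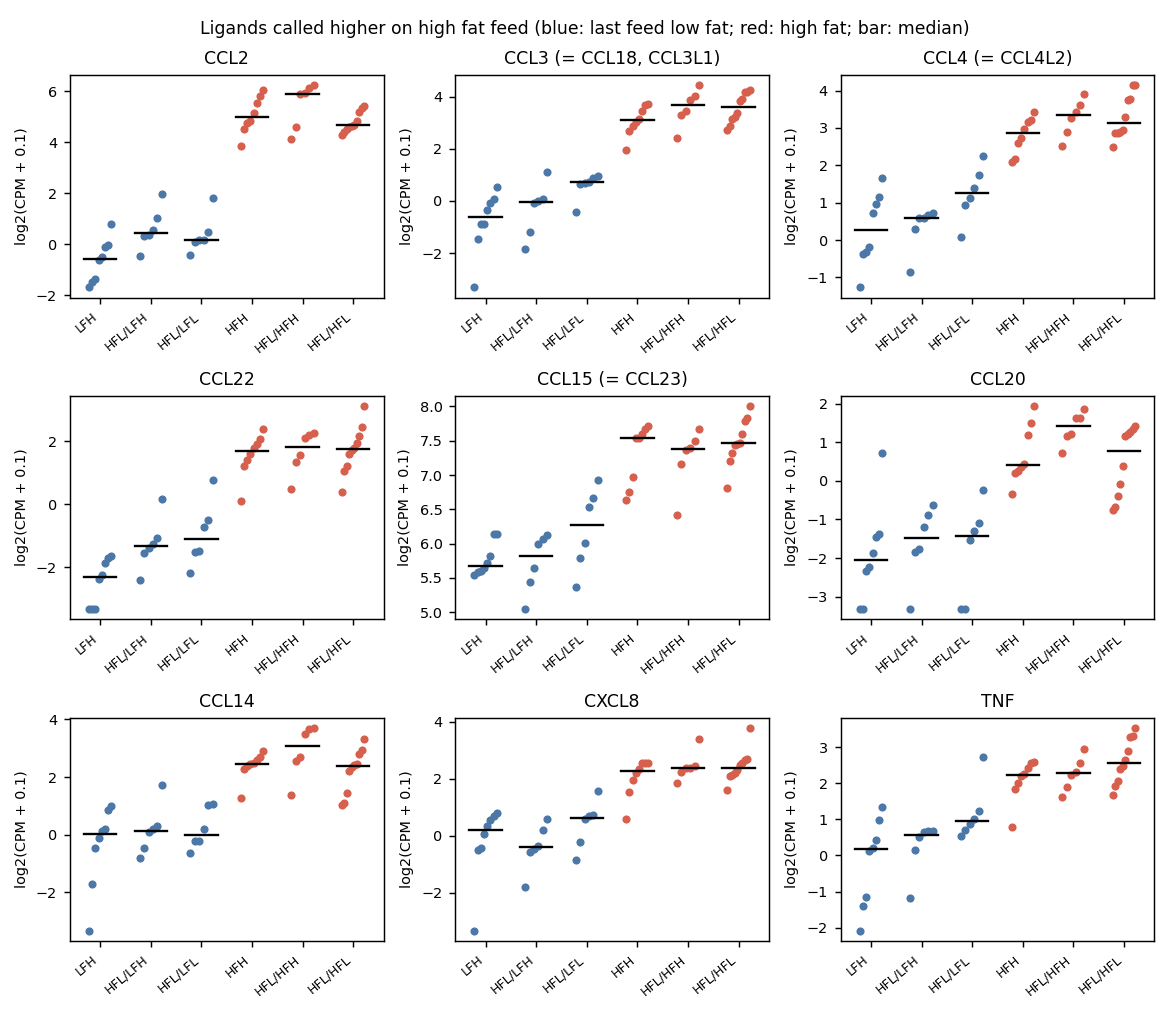
Levels of 9 ligands in each animal, as log2 of CPM plus 0.1 (y axis), by group (x axis), with blue points for animals whose last feed was low fat, red points for high fat and a bar at the group median. CCL2 and CCL3 show no overlap between feeds, whereas TNF in HFL/LFL has 1 animal at 6.48 CPM within the range of the high fat groups.

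Among the remaining chemokine ligands, CX3CL1 (fractalkine, the ligand of CX3CR1) rose in HFH alone of the 3 tests, by 0.92 (SE 0.28), and gave 0.74 (SE 0.33, adjusted p = 0.0747) and 0.13 (SE 0.29) in the others by edgeR. CXCL14 rose by 1.32 in HFH and 1.76 in HFL/HFH from medians under 1 CPM, and the calls held in 8 of 16 and 7 of 12 fits that left out an animal. The HFH call was also lost with no filter on low counts and by limma voom, and the HFL/HFH call with only the groups compared. CXCL17, an epithelial chemokine, fell in HFH, where it ran from 2.25 to 20.2 CPM (median 14.3) against 0.263 to 100.4 in LFH (median 55.9). Its log2 fold change was -1.99 (SE 0.62, adjusted p = 0.00669, edgeR), and by limma voom it was -1.28 with an adjusted p of 0.231. The corresponding values were -0.07 and -0.47 after the feed switch, where the low fat groups had medians of 22.6 (HFL/LFH) and 26.0 CPM (HFL/LFL). CXCL6, CXCL9, CXCL10, CCL11, CCL19 and CCL21 passed the test in none of the feed comparisons. CCL21, a ligand of CCR7 in lymphatic tissue, had a log2 fold change of 1.06 (SE 0.49, adjusted p = 0.07, edgeR) in HFH, where 1 animal reached 815 CPM and the next 318.

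In HFH against LFH 20 of 28 chemokine ligand symbols (13 of 21 distinct series) and 2 of 12 chemokine receptors rose, and the difference between these shares was not tested. CCR1, the receptor of CCL3 and CCL15 on monocytes and neutrophils, lay between 16.0 and 33.9 CPM in LFH (median 19.6) and between 19.7 and 67.7 in HFH (median 43.2). It rose by 1.12 (SE 0.20), 1.42 (SE 0.24) and 0.97 (SE 0.21). CCR6 rose in HFH only among the 3 tests, by 1.15 (SE 0.37), and CXCR2, a receptor of CXCL8, rose in HFL/HFH only, by 2.02 (SE 0.80) at levels at or under 1.69 CPM, a call that held in 5 of 12 fits without an animal and 6 of the 8 alternative fits (other scalings, filters or tools, shared counts taken once, or fewer groups). CCR4, the receptor of CCL17 and CCL22, had log2 fold changes of 0.57, 0.83 and -0.06, none of which passed. CCR3, CCR7, CCR9, CXCR1, CXCR3, ACKR1, ACKR3 and ACKR4 passed in none of the 3. The receptors CCR2 and CX3CR1 were not analysed here.

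Of the 5 interleukins, only IL33, an alarmin released by injured epithelial and endothelial cells, moved the same way in all 3 feed comparisons. It lay between 107 and 332 CPM in LFH (median 213) and between 47.3 and 195 in HFH (median 103). The log2 fold changes were -0.89 (SE 0.26), -0.83 (SE 0.30) and -0.78 (SE 0.26), and the animals overlapped in each. The calls in HFL/HFH and HFL/HFL held in 9 of 12 and 15 of 16 fits that left out an animal. IL1B lay between 12.8 and 41.4 CPM in LFH (median 19.96) and between 3.98 and 33.3 in HFH (median 21.2), with log2 fold changes of -0.11 (SE 0.34), 0.43 (SE 0.40) and 0.64 (SE 0.36), none past the threshold. IL10, which restrains macrophages, gave -0.11 (SE 0.41), 0.19 (SE 0.47) and -0.14 (SE 0.41). IL7 rose in HFL/HFH alone of the 3 tests, by 0.58 (SE 0.23), and kept that call in 5 of 12 fits that left out an animal and 6 of the 8 alternative fits. IL17D passed in none. IL6 and IL18 were not analysed here.

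The interleukin receptors moved in both directions. IL6R, the ligand-binding chain for IL6, which drives the acute phase response of hepatocytes, lay between 174 and 436 CPM in LFH (median 239), between 149 and 645 in HFL/LFH (median 342) and between 256 and 417 in HFL/LFL (median 358). On high fat it lay between 42.1 and 157 CPM in HFH (median 89.4), between 38.1 and 144 in HFL/HFH (median 72.4) and between 33.6 and 155 in HFL/HFL (median 69.7). Each pair of groups was fully separated. IL6R was 3.11-fold, 4.56-fold and 4.19-fold higher on low fat, with log2 fold changes of -1.64 (SE 0.30), -2.19 (SE 0.36) and -2.07 (SE 0.30). IL13RA2, a decoy receptor for IL13, was also fully separated, lying between 1.76 and 9.72 CPM in LFH (median 3.81) and between 0.150 and 1.42 in HFH (median 0.556). Its log2 fold changes were -2.81 (SE 0.47), -3.23 (SE 0.56) and -2.74 (SE 0.46). IL1R2, the decoy receptor for IL1, fell by 0.94, 0.94 and 1.28 on the log2 scale, and its HFL/HFH call held in 7 of 12 fits without an animal.

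Among the receptors that rose, IL1RL2, the receptor of the IL36 cytokines, increased by 1.71 (SE 0.29), 2.06 (SE 0.34) and 1.79 (SE 0.31), from a median of 2.92 CPM in LFH to 10.8 in HFH. IL10RB, a chain shared by the receptors of IL10, IL22 and interferon lambda, rose by 0.78, 0.98 and 0.66. Its counts were also listed under 2 symbols that are not members, 1 of them the interferon receptor IFNAR2, so the row cannot be assigned to IL10RB alone. IL2RG, the common gamma chain, rose by 0.77, 1.08 and 0.66, and its counts were likewise shared with 1 unnamed entry. IL7R, IL17RA and IL13RA1 rose in HFH and HFL/HFH and did not pass in HFL/HFL, and IL2RA and IL17RD rose in HFH only among the 3 tests. In HFL/HFH the call of IL13RA1 held in 8 of 12 fits without an animal and in 6 of the 8 alternative fits, and that of IL17RA was lost with only the groups compared. IL17RD kept its call in 3 of the 16 fits without an animal and 7 of the 8 alternative fits. IL12RB1, IL17RB, IL18RAP, IL2RB and IL9R passed in none of them. IL4R behaved differently and is described with the vitC comparisons.

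**Figure D3:**
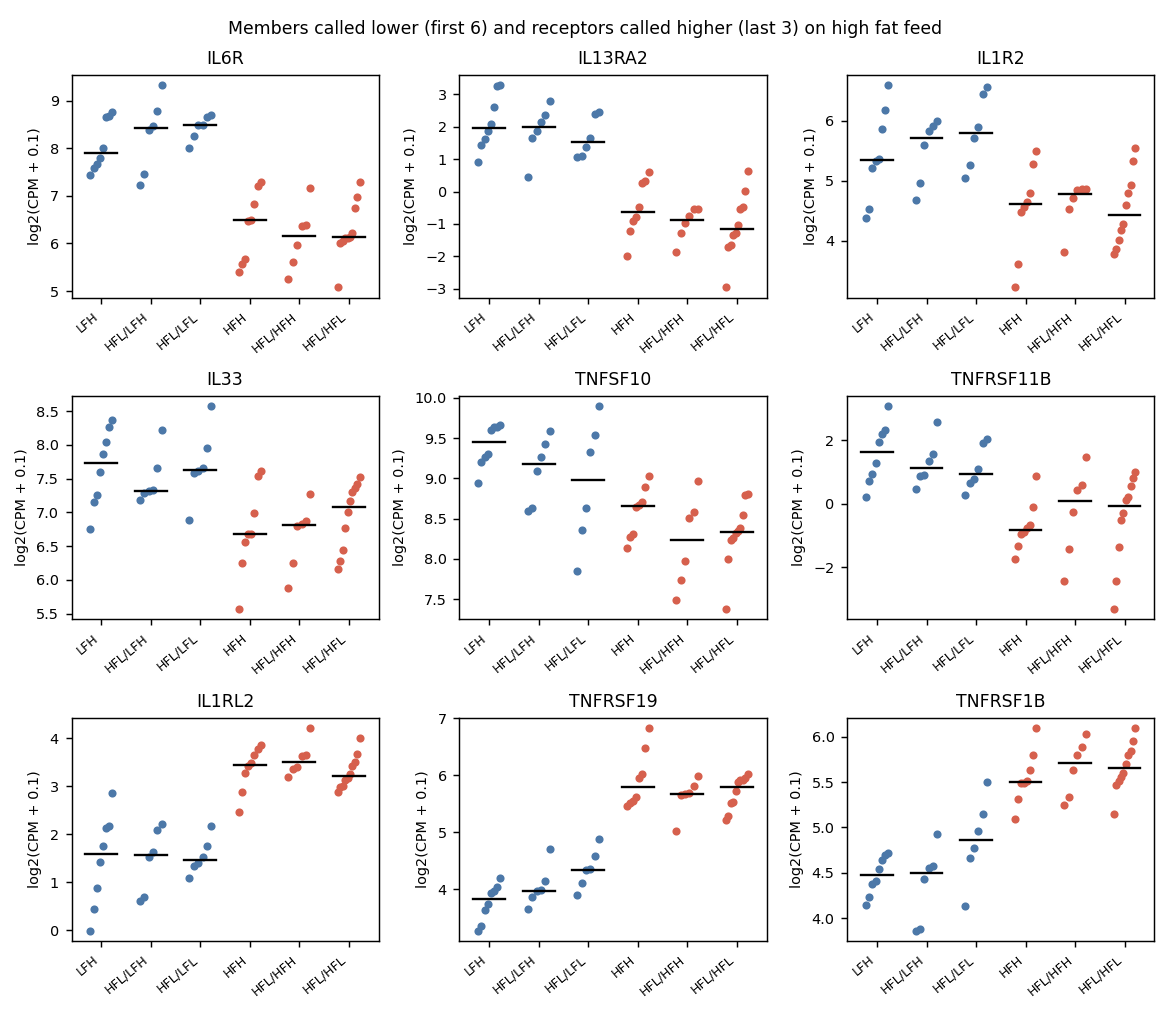
Levels in each animal, as log2 of CPM plus 0.1 (y axis), by group (x axis, blue for low fat and red for high fat as last feed, bar at the median), of 6 members that fell on high fat feed in 2 or 3 comparisons and 3 receptors that rose. IL6R and IL13RA2 separate in each feed comparison, and TNFSF10 and IL33 overlap.

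TNF itself lay between 0.137 and 2.43 CPM in LFH (median 1.02) and between 1.63 and 5.89 in HFH (median 4.59). It rose by 2.06 (SE 0.40, adjusted p = 3.48e-05, edgeR), 2.03 (SE 0.46) and 1.37 (SE 0.41). Both of its receptors were measured. TNFRSF1B, found mainly on immune cells, lay between 17.6 and 26.3 CPM in LFH (median 22.2) and between 34.004 and 68.2 in HFH (median 45.3), and rose by 1.1, 1.27 and 0.77. TNFRSF1A, present on most cells, rose by 0.49 (SE 0.10) and 0.41 (SE 0.12) and gave 0.06 in HFL/HFL against HFL/LFL. TNFRSF19 (TROY, an orphan receptor of the family) lay between 9.57 and 18.2 CPM in LFH (median 14.2), between 43.9 and 114 in HFH (median 55.6) and between 37.2 and 65.1 in HFL/HFL (median 55.6). The groups were separated in each feed comparison, with log2 fold changes of 2.22 (SE 0.19), 1.58 (SE 0.21) and 1.33 (SE 0.19).

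TNFSF10 (TRAIL, a death ligand) fell by 0.82, 0.85 and 0.75 on the log2 scale, from a median of 704 CPM in LFH to 404 in HFH, and the HFL/HFL call was lost without HFL/LFL animal 13 (log2 -0.52, adjusted p = 0.069, edgeR). TNFRSF11B (osteoprotegerin) fell in HFH by 2.49 (SE 0.59) and in HFL/HFL by 1.42 (SE 0.57), the latter kept in 8 of 16 fits that left out an animal and in 5 of the 8 alternative fits. Of the TNFAIP genes, TNFAIP8L3 rose by 1.21, 0.99 and 1.02, TNFAIP8L2 rose in HFL/HFH (0.66, held in 7 of 12 fits without an animal) and HFL/HFL (0.59, held in 12 of 16), and TNFAIP3 (A20, an inhibitor of NF-kB signalling) rose in HFH, by 0.51, a call lost without HFH animal 47 (adjusted p = 0.0547, edgeR). TNFAIP1 passed in none. Of the others, TNFSF13B, TNFRSF11A and TNFRSF4 rose in HFH, TNFSF15 in HFL/HFH and TNFRSF9 in HFL/HFL, each in 1 of the 3 comparisons, and TNFSF8, TNFSF14 and TNFRSF13B in none. When animals were left out, the call held in 7 of 16 fits for TNFSF13B, 10 of 16 for TNFRSF4, 14 of 16 for TNFRSF11A and 7 of 12 for TNFSF15. Of the 8 alternative fits it held in 6 for TNFSF13B and for TNFRSF4 and in 7 for TNFSF15. CSF2 (GM-CSF) rose in HFH and in HFL/HFH at levels at or under 0.836 CPM, and the HFH call was lost without HFH animal 1 (adjusted p = 0.0623, edgeR). It had no count in HFL/LFH, which put HFL/HFH at least 1.77-fold higher. CSF3R passed in none of the 3.

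The genes that carry these signals inside the cell were read from a separate list of 59, of which 27 were tested. In HFH 10 rose and 3 fell, in HFL/HFH 9 rose and 2 fell, and in HFL/HFL 9 rose and 6 fell, beside 27.7% and 21.7%, 19.4% and 16.5%, and 19.7% and 18.1% of all genes. Those that rose in HFH included the kinase IKBKE, by 2.05 (SE 0.21), the TNF receptor adaptor TRAF3, by 1.41 (SE 0.14), and TRAF1, by 0.79. SOCS2, IRAK2 and NFKBIZ fell, by 0.82, 0.46 and 0.63. The median of the 27 was 0.06, 0.15 and 0.16 on the log2 scale. NFKBIA, BIRC3 and SOCS3 had log2 fold changes in HFH of -0.21, 0.05 and -0.08 and did not pass, whereas TNIP3 rose by 1.28 (SE 0.27). Signalling activity was not tested. SOCS3 fell in HFL/HFL against HFL/LFL, by 0.94 (SE 0.26).

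In bulk liver RNA, more cells of a type and more RNA per cell cannot be told apart, and several cell type markers moved with the feed. Of 7 macrophage markers tested, TREM2, MSR1, AIF1 and LYZ rose in HFH and CD5L and MRC1, which resident macrophages express, fell, while their summed level lay between 426 and 682 CPM in LFH and between 242 and 571 in HFH. All 3 cholangiocyte markers tested rose in each feed comparison, from a summed 145 to 380 CPM in LFH to 683 to 1269 in HFH. Of 9 hepatocyte markers listed, 3 were tested (ALB, ASGR1 and SERPINA1). All 3 fell in HFH, from a summed 99063 to 215398 CPM to 20529 to 87961, a sum that was mostly ALB. In HFL/HFH only ALB fell, and in HFL/HFL ALB and SERPINA1 fell, where ASGR1 gave -0.20 and -0.02 and was not called. Of the 7 neutrophil markers none passed in HFH. S100A8 and S100A9 rose in HFL/HFH, by 2.36 and 1.97, and MPO rose in HFL/HFL over HFL/LFL, where no HFL/LFL animal had a count of it. Of 10 T cell markers CD8A rose and CD3E fell in HFH and in HFL/HFH and none passed in HFL/HFL. Their summed level was 177 to 244 CPM in LFH and 63.7 to 127 in HFH. Most of this sum was CD3E, with means of 175 and 70.3 CPM, and the median log2 fold change of the 10 in HFH was 0.09. The other lists gave in HFH 0 up and 1 down of 3 for NK cells, 0 and 1 of 7 for B and plasma cells, 1 and 1 of 5 for dendritic cells, 1 and 1 of 5 for endothelium, and 2 and 1 of 4 for stellate cells and fibroblasts. Among the endothelial markers VWF rose and LYVE1 fell in HFH, LYVE1 alone fell in HFL/HFH, and 4 of 5 (CDH5, KDR, LYVE1 and VWF) fell in HFL/HFL, while the member IL33 fell in all 3 feed comparisons. The part of these markers in the results on the members was not tested.

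The second question asked here was whether vitC altered the response, first among animals returned to low fat feed. In HFL/LFL against HFL/LFH, 1 of 82 members rose and none fell, where 0.155% of all genes rose, and 21 members had an unadjusted p under 0.05, as did 11.0% of all genes. The median log2 fold change was 0.45 for the members, 0.35 for the 75 distinct series and 0.00 for all genes, and 63 of the 82 members had a value above 0. No cell type marker was called in this comparison, but the medians of the 7 neutrophil and the 7 macrophage markers were 0.87 and 0.44, and that of the 4 stellate cell and fibroblast markers was 0.45. S100A8 gave 3.18 (SE 0.76, adjusted p = 0.0552, edgeR), S100A9 2.62 (SE 0.81), MSR1 0.74 (SE 0.21) and MS4A1 1.3 (SE 0.40), and their part in the members' values was not tested. The member that passed was CXCL11, a ligand of CXCR3 induced by interferon (log2 4.70, SE 1.06, adjusted p = 0.0378, edgeR). It lay between 0 and 0.183 CPM in HFL/LFH and between 0 and 12.5 in HFL/LFL, whose second highest animal had 0.551. Without HFL/LFL animal 68 the log2 fold change was 1.97 and the adjusted p 0.43. The nearest member after it was IL13RA1, a receptor chain for IL4 and IL13, with 0.61 (SE 0.15, adjusted p = 0.0645, edgeR). DESeq2 called 3 members in this comparison and limma voom none, and the CXCL11 call held in 6 of 12 fits without an animal.

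CXCL11 was also the member with opposite calls on high fat feed, higher in HFL/HFH (log2 2.96, SE 1.02) and lower in HFL/HFL (log2 -1.96, SE 0.76) than in their low fat partners. The first call was lost without HFL/HFH animal 30 (adjusted p = 0.0746, edgeR) and by limma voom (adjusted p = 0.179). The second held in 10 of 16 fits without an animal and turned to 0.77 without HFL/LFL animal 68. It was also lost with only the groups compared and by limma voom, which gave -0.06 (adjusted p = 0.959). That animal also had 267 CPM of CXCL10, where the next HFL/LFL animal had 23.6, and the highest CXCL9 of its group, at 36.3 CPM. Animal 90 of HFL/HFL had 281 CPM of CXCL10, where the next had 27.7, but 1.70 CPM of CXCL11. CXCL9, CXCL10 and CXCL11 are the interferon-induced ligands of CXCR3, and CXCR3 itself stayed at or under 2.43 CPM. CCL11 (eotaxin) reached 34.1 CPM in animal 32 of HFL/LFH and 22.2 in animal 84 of HFL/HFH, where the group medians were 1.24 and 0.478.

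**Figure D4:**
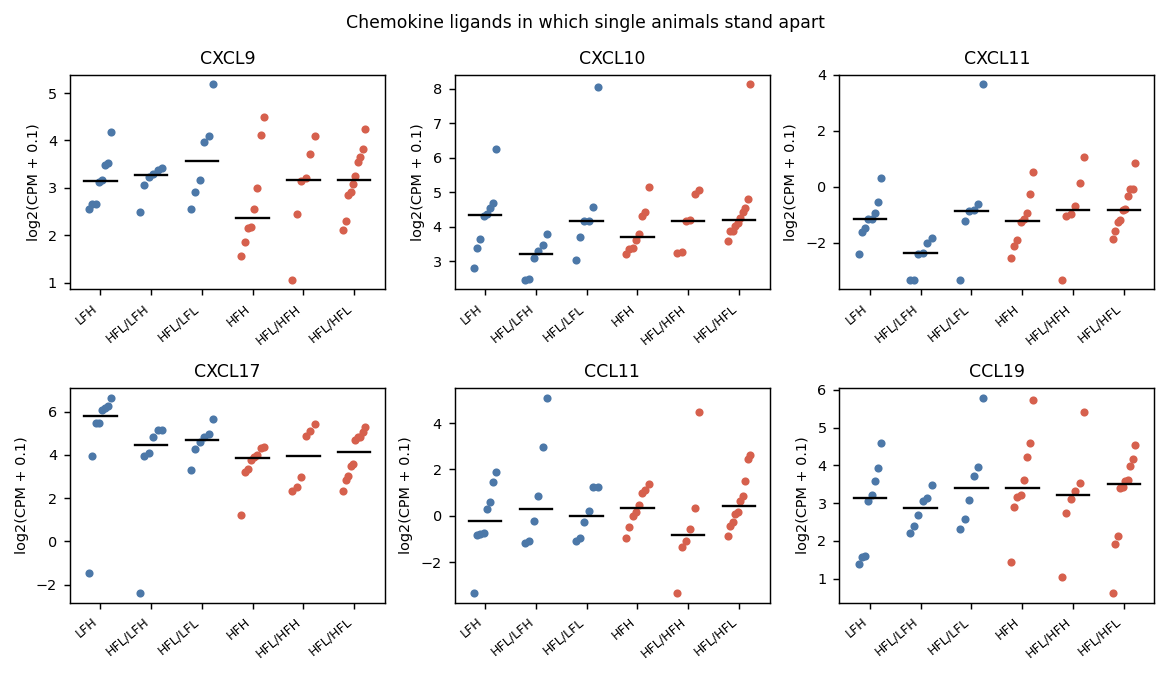
Levels of 6 chemokine ligands in each animal, as log2 of CPM plus 0.1 (y axis), by group (x axis, blue for low fat and red for high fat as last feed, bar at the median). CXCL10 has 1 animal at 267 CPM in HFL/LFL and 1 at 281 in HFL/HFL, and CXCL17 has 1 animal near 0 in LFH and in HFL/LFH.

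On high fat feed no member was called between the vitC groups by edgeR. In HFL/HFL against HFL/HFH, none passed by edgeR, DESeq2 or limma voom, where 0.0129% of all genes passed by edgeR. An unadjusted p under 0.05 was found for 2 members, CCL2 and TNFAIP8L2, and for 3.37% of all genes. HFL/HFL against HFH, which differ in vitC over the whole 32 weeks, gave no member past the threshold by edgeR, where 0.271% of all genes passed. An unadjusted p under 0.05 was found for 8 of the 82 members and 17.3% of all genes there. DESeq2 called 1 member there and limma voom 5. CSF3R, the receptor of the neutrophil growth factor G-CSF, was called by both and had an edgeR log2 fold change of 1.19 (SE 0.35, adjusted p = 0.0948). The interaction of feed and vitC passed for no member by any of the 3 tools. It passed for 0.0% of all genes, and an unadjusted p under 0.05 was found for 8 members and 8.23% of all genes. CXCL11 had the lowest p of these, at -4.91 (SE 1.28, adjusted p = 0.233, edgeR), followed by IL13RA1 (-0.61, SE 0.20) and IL4R (-0.61, SE 0.21).

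The last comparisons asked how near the animals returned to low fat feed came to those never given high fat. They share the LFH animals with HFH against LFH, and HFL/LFL and HFL/LFH with the comparisons above. HFL/LFL also differed from LFH in vitC throughout, and HFL/LFH in the first 16 weeks. Past high fat feed and vitC therefore cannot be told apart in these comparisons. In HFL/LFH against LFH no member passed by edgeR, DESeq2 or limma voom, where 0.361% of all genes did, and the median was -0.03. An unadjusted p under 0.05 was found for 10 members and 10.4% of all genes. In HFL/LFL against LFH 8 members rose and none fell, where 4.43% of all genes rose. The median of the members was 0.44 and that of all genes 0.03, and 67 of the 82 had a value above 0. A direct test between HFL/LFL and HFL/LFH by edgeR called CXCL11 alone, as described above, so by edgeR the 8 are not shown to differ between the vitC groups. DESeq2 called 3 members in that comparison, and whether any of the 8 was among them is not given here.

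The 8 members were IL4R, CCL22, TNFRSF1A, CCR1, CCL17, IL13RA1, IL17RA and TNFRSF19. IL4R, the receptor chain for IL4 and IL13, lay between 95.6 and 177 CPM in LFH (median 121), between 119 and 221 in HFL/LFH (median 131) and between 129 and 320 in HFL/LFL (median 212). It was higher in HFL/LFL than in LFH by 0.73 (SE 0.14, adjusted p = 0.00139, edgeR), and this call alone of the 8 held in every fit that left out an animal and in all 8 alternatives. It was also higher in HFL/LFL than in HFL/HFL (log2 -0.55, SE 0.14, for HFL/HFL over HFL/LFL), whereas HFH and LFH differed by 0.19 (SE 0.13). IL13RA1, with which IL4R forms a receptor, lay between 115 and 168 CPM in LFH (median 135) and between 155 and 248 in HFL/LFL (median 181), a log2 difference of 0.44 (SE 0.14).

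CCR1 lay between 16.0 and 33.9 CPM in LFH (median 19.6), between 14.5 and 26.4 in HFL/LFH (median 20.9) and between 24.1 and 42.0 in HFL/LFL (median 38.1). It was higher in HFL/LFL than in LFH by 0.73 (SE 0.22, adjusted p = 0.0301, edgeR), and gave -0.02 in HFL/LFH. CCL22 differed from LFH by 2.39 (SE 0.59) in HFL/LFL and by 1.89 (SE 0.61, adjusted p = 0.195, edgeR) in HFL/LFH, against an LFH median of 0.104 CPM, where the medians were 0.382 (HFL/LFL) and 0.302 (HFL/LFH). TNFRSF1A, IL17RA and TNFRSF19 differed by 0.43, 0.49 and 0.60, and CCL17 by 3.42 from a level at or near 0. TNF was just outside the threshold (log2 1.27, SE 0.42, adjusted p = 0.0521, edgeR). CCL2 gave 1.07 in HFL/LFL and 1.33 in HFL/LFH, with adjusted p of 0.129 and 0.219 by edgeR. IL6R and IL13RA2, which had fallen on high fat feed, gave 0.29 and -0.58 in HFL/LFL against LFH and did not pass. The macrophage markers TREM2 and MSR1 and the cholangiocyte marker EPCAM were also higher in HFL/LFL than in LFH, by 5.13, 0.65 and 1.09, and TREM2 was likewise higher in HFL/LFH than in LFH, by 4.35. Also higher in HFL/LFL were the neutrophil markers S100A8 and S100A9, by 2.67 and 2.27, the T cell marker LCK, by 0.79, and the B cell markers CD79B and MS4A1, by 1.37 and 1.21. The summed neutrophil markers lay between 113 and 187 CPM in LFH and between 135 and 181 in HFL/LFL. Most of this sum was LTF, which was not called and had means of 135 and 146 CPM. The markers named as higher were all of those called in HFL/LFL against LFH, and their part in the differences was not tested. Of 14 fits without an animal, the call in HFL/LFL against LFH held in 13 for CCL22, 12 for TNFRSF1A, 8 for CCR1, 5 for TNFRSF19, 4 for CCL17 and for IL13RA1 and 2 for IL17RA. Of the 8 alternative fits it held in 7 for TNFRSF1A and CCR1, 6 for CCL22, 5 for CCL17 and IL13RA1, 4 for IL17RA and 3 for TNFRSF19. Leaving out HFL/LFL animal 44 reduced the 8 members to 2, and leaving out LFH animal 56 raised them to 15.

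**Figure D5:**
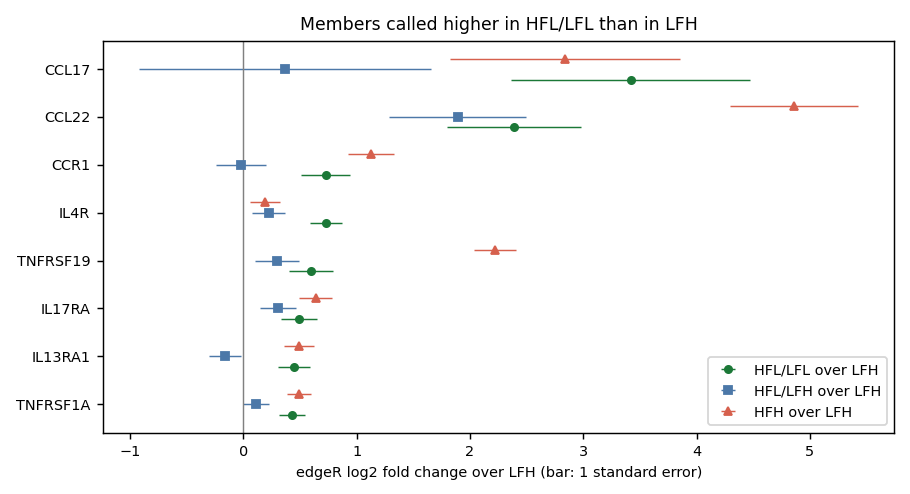
Log2 fold changes over LFH (x axis, with 1 standard error) of the 8 members higher in HFL/LFL than in LFH (green), with the same genes in HFL/LFH (blue) and HFH (red). IL4R stands at 0.73 in HFL/LFL against 0.19 in HFH, whereas TNFRSF19 and CCL22 stand highest in HFH.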

How the data were processed

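Reads were trimmed (Trimmomatic 0.38.0), mapped to Ensembl's Cavia porcellus assembly (HISAT2 2.1.0) and quantified (StringTie 2.1.1) by the authors, who named genes by human orthologues. The deposited table holds raw counts per symbol, 1 column per animal, and a second deposited table holds DESeq2 variance-stabilized values on a log2 scale, used to choose the members and to check signs. How the counts were derived from StringTie output is not given in the sources used here. Animals were grouped by the labels. The members and lists were chosen with earlier results of these data known.

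Counts of the 7750 genes with a total of at least 200 were scaled by TMM and fitted over all 44 animals by edgeR 4.0.16 (quasi-likelihood F test, 6 group means), with Benjamini-Hochberg adjustment over all genes tested and a threshold of 0.05. SE is the absolute log2 fold change divided by the square root of F. CPM uses effective library sizes, with 3 counts as floor. Genes described at length were members separated between HFH and LFH, called in every feed comparison or in a vitC or LFH comparison, and the classical cytokines. The study's own comparison was made with DESeq2 and is here an alternative. Among 146 pairs of animals within groups, none had matching counts (chi-square per gene of at least 52.1). The 8 alternatives were RLE and upper-quartile scaling, no filter on low counts, filterByExpr, shared counts taken once, limma 3.58.1 voom with quality weights, DESeq2 1.42.0 and fits of only the groups compared. Each animal was also left out in turn.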

Additional observations from a re-analysis of the deposited data

Results flagged for a closer look

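In groups of 6 to 10 animals, the highest or lowest animal was compared with its nearest neighbour on the log2(CPM + 0.1) scale by Dixon's criterion. Of 162 sets of values (1 gene in 1 group), 14 passed, and chance alone gives about 5%. Those in which the animal was high were CXCL10 in HFL/LFL animal 68 (267 CPM, next 23.6) and in HFL/HFL animal 90 (281 CPM, next 27.7), TNF in HFL/LFL animal 68 (6.48 CPM, next 2.23) and CXCL8 in HFL/HFL animal 81 (13.7 CPM, next 6.31). CCL17 was above 0 in LFH animal 27 alone (0.182 CPM) and in HFL/LFH animal 4 alone (0.196 CPM).

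Low animals were found for TNF in HFL/LFH animal 32 (0.340 CPM, next 1.02) and HFH animal 6 (1.63 CPM, next 3.52), for CCL4 in HFL/LFH animal 32 (0.453 CPM, next 1.13) and for CCL18, equal to CCL3, in HFL/LFL animal 13 (0.636 CPM, next 1.46). The others were CXCL8 in LFH animal 25 (0 CPM, next 0.614), IL10 in LFH animal 46 (0.418 CPM, next 1.16), IL1R2 in HFL/HFH animal 20 (13.9 CPM, next 22.8) and TNFRSF19 in HFL/HFH animal 30 (32.5 CPM, next 49.98). Animals 32 and 68 each stood apart for 2 genes. The cause was not tested.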

How the results depend on the processing

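The member counts of the 3 feed comparisons, of all 3 together and of the signalling list in HFH over LFH (the comparison in which it was refitted) stayed within 1.5 times their values under the 8 alternatives and when animals were left out, when the lowest and highest were 43 to 48 (HFH over LFH), 36 to 42 (HFL/HFH over HFL/LFH), 33 to 36 (HFL/HFL over HFL/LFL), 28 to 31 (all 3) and 13 to 15 (signalling genes, HFH over LFH). The counts against LFH and between vitC groups depended on the setting. HFL/LFL over LFH gave 8 members, and 4 with no filter on low counts, 3 by limma voom, 13 by DESeq2, 2 with only the groups compared and 2 to 15 when an animal was left out. HFL/LFL over HFL/LFH gave 1, and 0 by limma voom, 3 by DESeq2, 0 with only the groups compared and 0 to 2 without an animal. HFL/HFL over HFH gave 0, and 5 by limma voom, 1 by DESeq2 and 0 to 2 without an animal (2 without HFH animal 88). HFL/HFL over HFL/HFH, HFL/LFH over LFH and the interaction gave 0 in every setting run. Over the called members, 2779 of the refitted values kept their call, 203 lost it and 1 turned, CXCL11 in HFL/HFL over HFL/LFL, at 0.77 without HFL/LFL animal 68 (lowest -2.27, without HFL/HFL animal 90). Apart from that animal and the number of groups fitted, the cause was not tested. No paired analysis was possible because groups had no animal number in common. Members near 1 CPM rest on few counts, and the absence of a call does not show that groups were alike.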
